A study of Homo sapiens with 6 samples.

Results

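The anaphase-promoting complex/cyclosome (APC/C) and the cullin-RING complexes are ubiquitin ligases that mark cell cycle proteins for the proteasome. The expression of 35 genes that encode them was compared between parental HCT116 cells (ZK3-WT) and HCT116 cells without functional ZKSCAN3 (ZK3-KO). HCT116 is a human colorectal carcinoma cell line, and ZKSCAN3 is a zinc finger transcription factor with KRAB and SCAN domains. The genes were taken from a list of names drawn up with earlier results of these data known, and all 35 were found among the 46427 genes of the deposited table. Each genotype had 3 RNA-seq libraries from biological replicates, and both were grown in DMEM with fetal bovine serum. In ZK3-KO cells, CRISPR/Cas9 was targeted to the first ZKSCAN3 exon, and both alleles were mutant. ZK3-KO cells were of clonal origin, selected from single cells with puromycin. The sources do not say how many clones gave the ZK3-KO libraries, and clone and genotype cannot be told apart.

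The APC/C is built from a scaffold, an arm of subunits with TPR repeats, and a catalytic pair of a cullin-like and a RING protein. It acts from mitosis into G1 with a coactivator (CDC20 or FZR1), and it targets cyclins, securin and spindle proteins. SCF complexes join the cullin CUL1 and the RING protein RBX1 to the adaptor SKP1 and an F-box protein that recognizes the substrate, such as the CDK inhibitor p27 or cyclin E. Attachment of the ubiquitin-like protein NEDD8 activates cullins, and CAND1 exchanges their substrate adaptors.

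ZK3-KO replicate 3 stood apart from the other libraries. Its log2 CPM (read counts scaled to library size with TMM factors) correlated at 0.973 and 0.961 with ZK3-KO replicates 1 and 2, which correlated at 0.993 with each other. Its highest correlation was with ZK3-WT replicate 3, at 0.977. The libraries held 60827060 to 69739215 counted reads. Of 18366 genes tested with edgeR, 376 passed a false discovery rate (FDR) of 0.05. This number was 2858 without ZK3-KO replicate 3, and leaving out any 1 of the other 5 libraries gave 49 to 158. The ZKSCAN3 level ran from 19.8 to 28.1 CPM in ZK3-WT and from 13.6 to 25.4 CPM in ZK3-KO (FDR = 0.797 with edgeR). A count over the whole gene does not test a mutation in the first exon. Of 6 epithelial markers, 5 were present, between 8.35 TPM for CDX2 and 2147 TPM for KRT8, while VIL1 was at most 0.0289 TPM. PTPRC and CD3E were at 0 in every library, and COL1A1 was between 11.9 and 29.1 TPM while COL1A2 did not exceed 0.0199 TPM.

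All 35 genes passed the filter on low counts, with 567 to 20171 reads per gene and library. The level in ZK3-KO was above that in ZK3-WT for 31 of the 35 genes (88.6%), compared with 51.7% of all genes tested. The median log2 fold change was 0.24 for the 35 genes and 0.018 for all genes tested, and single values ran from -0.33 to 0.75. With all 6 libraries, no gene of the 35 reached an FDR of 0.05 in edgeR's test (2.05% of all genes did). At an unadjusted p of 0.05, 5 genes (14.3%) were higher in ZK3-KO, namely CKS2, ANAPC7, ANAPC2, SKP1 and CDC34, against 8.89% of all genes. None was lower, against 9.46% of all genes. The number at this unadjusted level was 8, 2 and 3 without ZK3-WT replicates 1, 2 and 3. It was 5, 4 and 11 without ZK3-KO replicates 1, 2 and 3. The share of all genes at this level was not taken in these settings. The number of all genes past an FDR of 0.05 ran from 49 to 2858 in them. On CPM, every ZK3-KO library was above every ZK3-WT library in 11 genes (31.4%), against 12.7% of all genes. In none was every ZK3-KO library below, against 13.8%. On the deposited TPM, CDC26, CKS2 and CDC34 stayed without overlap. ANAPC7, ANAPC2, ANAPC11, ANAPC10, FZR1, CUL1, SKP1 and NEDD8 overlapped on TPM, each with ZK3-KO replicate 3 below the highest ZK3-WT library. The share of all genes without overlap on TPM was not taken.

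Without ZK3-KO replicate 3, 5 of the 35 genes (14.3%) rose past an FDR of 0.05, where 7.41% of all genes did. These were ANAPC7, SKP1, SKP2, CCNF and CKS2. ANAPC16 fell (2.86% of the genes), where 7.73% of all genes did. The median was then 0.27 against -0.018 for all genes, and 31 genes were again above 0. The 35 genes share libraries and are not independent, so these shares are descriptions. The 95% interval of the log2 fold change reached 0.31 to 1.34 to either side, with a median of 0.42, and for 25 of the 35 genes it extended above a 1.5-fold increase. Differences of that size were therefore not resolved for most of these genes with 3 libraries per genotype. In bulk RNA, more cells in a cell cycle phase and more RNA per cell cannot be told apart.

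**Figure D1:**
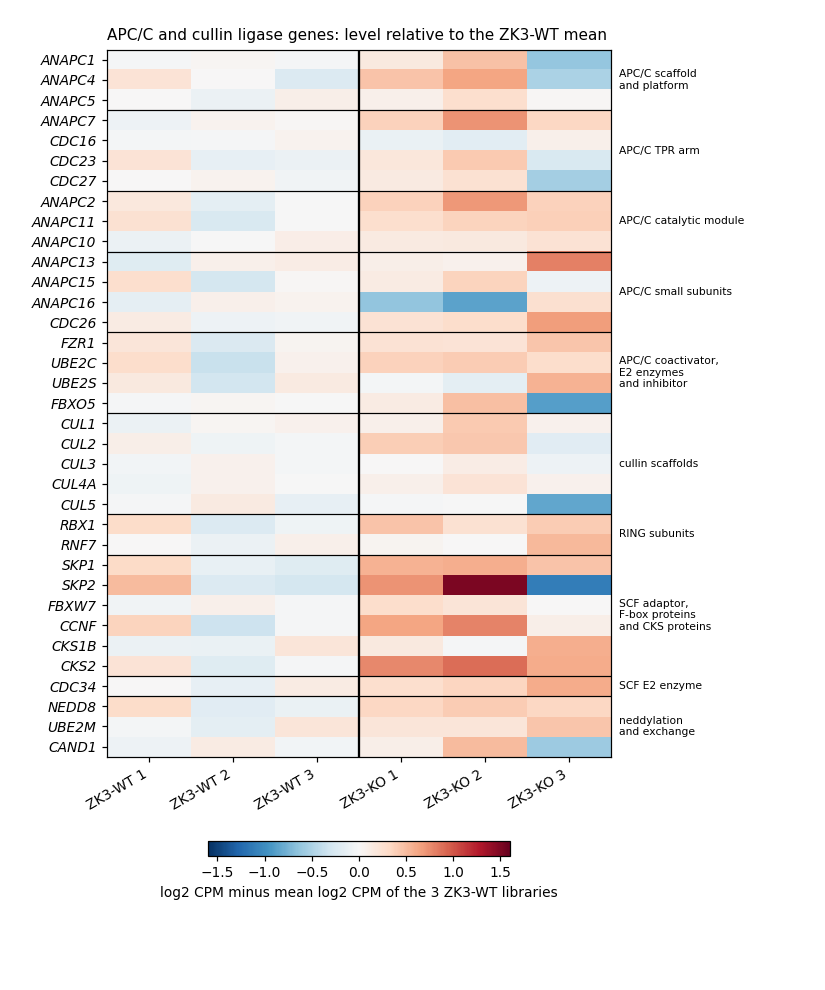
Heat map of the 35 APC/C and cullin ligase genes (rows, grouped by role) in the 6 libraries (columns). Colour gives log2 CPM minus the mean log2 CPM of the 3 ZK3-WT libraries, from -1.6 to 1.6. The medians over the 35 genes were 0.18, 0.35 and 0.23 in ZK3-KO replicates 1, 2 and 3, and the column of replicate 3 holds both the strongest increases of ANAPC13 and CDC26 and values below ZK3-WT for SKP2, FBXO5 and CUL5.

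The SCF adaptor, F-box and CKS genes had the highest median of the role groups with more than 1 gene. All 6 were above 0, with a median log2 fold change of 0.51. Without ZK3-KO replicate 3 the median was 0.63, and 4 of them rose past an FDR of 0.05, where 7.41% of all genes rose. By library, relative to the ZK3-WT mean, the median of the 6 was 0.26, -0.16 and -0.018 in ZK3-WT replicates 1, 2 and 3. In ZK3-KO replicates 1, 2 and 3 it was 0.60, 0.69 and 0.27, so ZK3-KO replicate 3 was near ZK3-WT replicate 1. CKS2 encodes a small subunit of cyclin-dependent kinases. In ZK3-WT libraries 1, 2 and 3 its level was 69.5, 52.3 and 59.2 CPM, and in ZK3-KO libraries 1, 2 and 3 it was 102, 112 and 90.4 CPM. The lowest ZK3-KO library was above the highest ZK3-WT library, and the means were 60.4 ± 8.68 and 101 ± 10.6 CPM (SD, n = 3). The log2 fold change was 0.75 (SE 0.16, 95% interval 0.37 to 1.13), a 1.68-fold difference, at an FDR of 0.0702 with edgeR. The value was 0.83 with an FDR of 0.00922 without ZK3-KO replicate 3, and DESeq2 gave an FDR of 0.00244 for all libraries. Over 12 alternatives the FDR of CKS2 reached 0.324, and it passed 0.05 in those 2.

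SKP1 links the F-box protein to CUL1. Its level was 168, 125 and 119 CPM in ZK3-WT and 199.9, 204 and 185 CPM in ZK3-KO. The genotypes did not overlap on CPM, although ZK3-WT replicate 1 lay nearer to ZK3-KO than the other ZK3-WT libraries did. The log2 fold change of SKP1 was 0.52 (SE 0.17) with an FDR of 0.187, and 0.56 with an FDR of 0.0469 without ZK3-KO replicate 3 (range over the alternatives 0.0469 to 0.553).

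SKP2, the F-box protein for p27, was the gene of the 35 that varied most. It was at 40.6, 24.4 and 23.2 CPM in ZK3-WT and at 47.1, 81.5 and 12.96 CPM in ZK3-KO. ZK3-KO replicate 2 was 6.29 times as high as replicate 3, which lay below every ZK3-WT library. With all libraries the log2 fold change of 0.68 had an SE of 0.58 and an FDR of 0.576. Without ZK3-KO replicate 3, SKP2 rose by 1.14 on the log2 scale with an FDR of 0.0292, and over the alternatives its FDR ran up to 0.984. The log2 fold change of SKP2 was 0.031 without ZK3-KO replicate 2 and 0.37 with the replicate block.

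CCNF and CKS1B are described beside them after their values were seen. CCNF encodes cyclin F, an F-box protein of G2 phase. Its level was 82.1, 50.9 and 63.4 CPM in ZK3-WT and 100.2, 111 and 68.3 CPM in ZK3-KO, so that ZK3-KO replicate 3 fell inside the ZK3-WT range. It differed by 0.51 on the log2 scale (SE 0.24, FDR = 0.321 with edgeR) and by 0.70 without that library, at an FDR of 0.0378 (up to 0.723 over the alternatives). CKS1B encodes the cofactor with which SKP2 binds p27, and its level was 67.8, 67.3 and 83.1 CPM against 80.8, 71.5 and 108 CPM. The groups overlapped, with a log2 fold change of 0.26 (SE 0.19) and an FDR of 0.529, and the value was 0.071 without ZK3-KO replicate 3. On the length-scaled TPM measure CKS2 and CKS1B were at similar levels in ZK3-WT, with ratios of CKS2 to CKS1B of 1.32, 0.996 and 0.921. The ratios were 1.62, 2.07 and 1.07 in ZK3-KO, so replicate 3 lay within the ZK3-WT range. FBXW7, the F-box protein for cyclin E and MYC, had the lowest length-scaled level of the 35 genes (9.96 ± 0.539 TPM in ZK3-WT) and a log2 fold change of 0.17. CDC34 encodes the E2 enzyme of SCF and was at 57.1, 51.8 and 62.2 CPM in ZK3-WT. In ZK3-KO it was at 68.4, 72.4 and 85.8 CPM, all above ZK3-WT, with a log2 fold change of 0.40 (SE 0.15) and an FDR of 0.221.

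**Figure D2:**
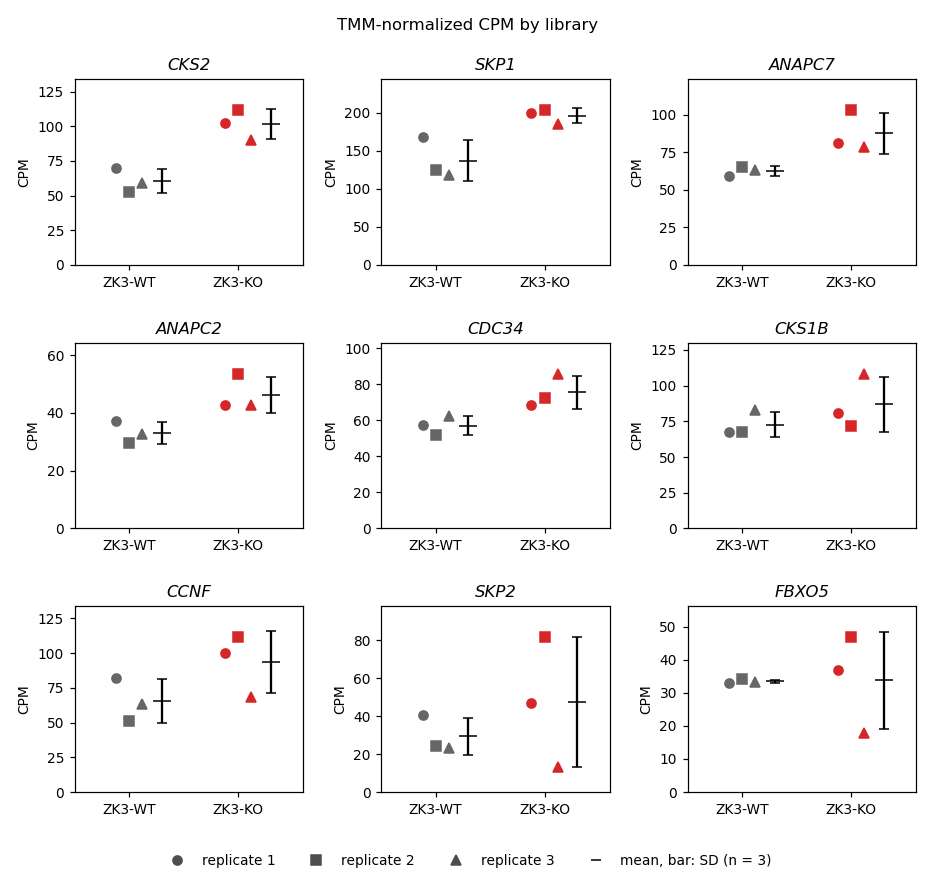
TMM-normalized CPM (vertical axis, from 0) of 9 genes in the libraries of each genotype. Symbols mark the replicate number, and the bar beside them gives the mean and SD of the 3 libraries. CKS2, SKP1, ANAPC7, ANAPC2 and CDC34 were separated between the genotypes, while ZK3-KO replicate 3 (triangle) was at 12.96 CPM for SKP2 and 17.9 CPM for FBXO5, below ZK3-WT.

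Promoters of many G2 and mitosis genes hold CCAAT boxes, bound by NF-Y, and a CHR element, bound by the DREAM and MYB-MuvB complexes. RefSeq (GRCh38.p14) sequence of the 250 bases before the gene start was matched for 34 of the 35 genes, all but UBE2C, and searched on both strands. CHR was searched as TTTGAA and also in the form TTCGAA, and it occurred in 6 of the 34 promoters (17.6%), against 14.3% of 35116 promoters. CCAAT occurred in 11 (32.4%), against 32.0%. The E2F words TTTCCCGC, TTTCGCGC, TTTGCCGC and TTTGGCGC occurred in 2, CDC16 and CDC23 (5.88%), against 2.79%. The 35116 promoters were all entries of the reference and were not limited to the genes tested here. CHR and CCAAT words together occurred in 3 promoters (8.82%), against 5.05%, and these 3 were CCNF, CKS1B and CKS2. All 3 are of the SCF group, whose other genes SKP1, SKP2 and FBXW7 held none of the words searched. CKS2 and CCNF were among the genes that rose without ZK3-KO replicate 3, while CKS1B did not pass (log2 fold change 0.071, FDR = 0.778). Of the other genes that rose, ANAPC7 held a CHR word alone, and SKP1 and SKP2 held none of the words. CCNF, CKS1B and CKS2 are shown because they hold both CHR and CCAAT words. A match is a description of letters and not a binding site. The sequences are of the plus strand, which is the strand of these genes, at chr16:2429197-2429446 for CCNF, chr1:154974431-154974680 for CKS1B and chr9:89310945-89311194 for CKS2. Capitals mark CCAAT, which reads ATTGG where it lies on the other strand, and the CHR words, where TTTGAA on the other strand reads TTCAAA. None of these words overlap.
CCNF: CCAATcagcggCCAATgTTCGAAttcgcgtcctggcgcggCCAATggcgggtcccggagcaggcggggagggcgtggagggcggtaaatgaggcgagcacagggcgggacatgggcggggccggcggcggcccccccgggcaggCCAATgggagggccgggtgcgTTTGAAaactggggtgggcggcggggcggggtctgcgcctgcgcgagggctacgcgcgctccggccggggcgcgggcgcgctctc
CKS1B: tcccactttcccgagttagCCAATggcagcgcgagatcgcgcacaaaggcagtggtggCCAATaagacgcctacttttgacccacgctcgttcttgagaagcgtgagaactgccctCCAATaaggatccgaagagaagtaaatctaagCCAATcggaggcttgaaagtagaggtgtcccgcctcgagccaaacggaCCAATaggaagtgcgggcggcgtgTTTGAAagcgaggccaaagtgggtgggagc
CKS2: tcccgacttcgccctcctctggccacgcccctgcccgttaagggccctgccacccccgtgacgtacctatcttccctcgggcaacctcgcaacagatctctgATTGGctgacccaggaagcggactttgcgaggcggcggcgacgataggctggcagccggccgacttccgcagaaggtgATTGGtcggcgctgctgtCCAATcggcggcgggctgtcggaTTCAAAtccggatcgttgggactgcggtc
The CHR word lay 30 to 25 bases before the start in CKS1B and 29 to 24 bases before it, on the other strand, in CKS2, and in CCNF the nearer of its 2 CHR words lay 85 to 80 bases before. CCNF had 4 CCAAT words, CKS1B had 5 and CKS2 had 3.

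**Figure D3:**
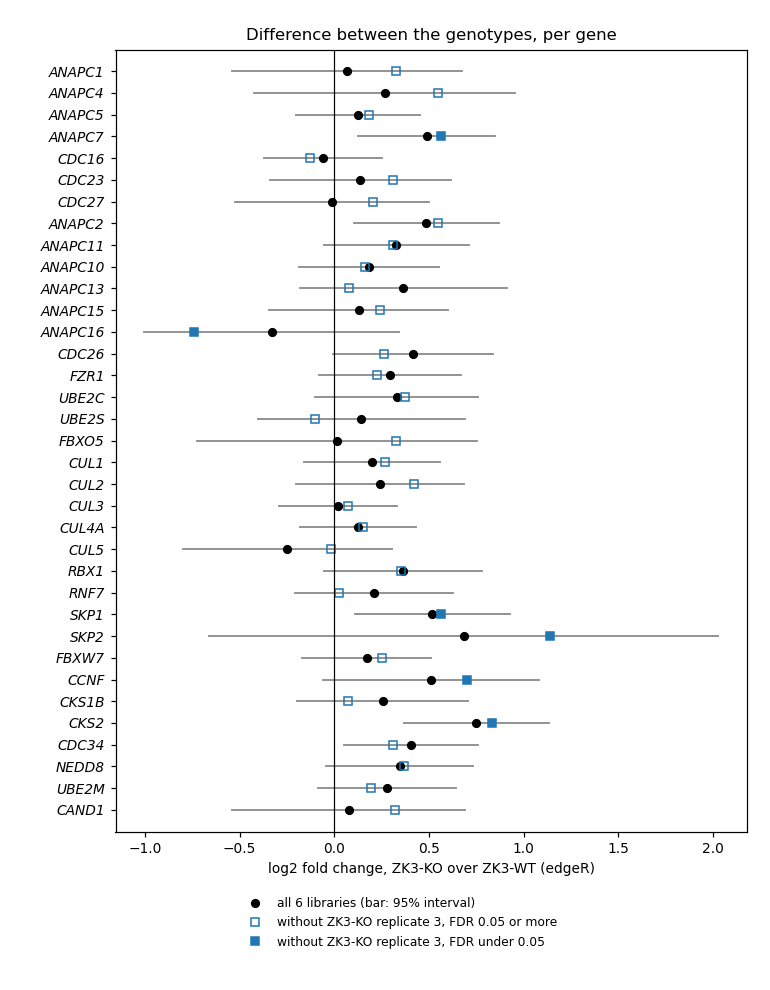
Log2 fold change of ZK3-KO over ZK3-WT (horizontal axis) for each of the 35 genes. Black points and grey bars give edgeR's value and 95% interval from all 6 libraries, and squares the value without ZK3-KO replicate 3, filled where the FDR was under 0.05. The intervals of CKS2, ANAPC7, ANAPC2, SKP1 and CDC34 lie above 0, and the filled squares are ANAPC7, ANAPC16, SKP1, SKP2, CCNF and CKS2.

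Among the 14 core subunits of the APC/C, 11 were above 0 with a median log2 fold change of 0.16, where 51.7% of all genes tested were above 0. At an unadjusted p of 0.05, 2 of the 14 were higher, beside 8.89% of all genes. These were ANAPC7 and ANAPC2. ANAPC7, of the TPR arm, was at 58.9, 64.9 and 63.3 CPM in ZK3-WT and at 80.8, 103 and 78.5 CPM in ZK3-KO, without overlap. On TPM, ANAPC7 was lowest of all libraries in ZK3-KO replicate 3, at 44.46 against 44.48 to 51.2 in ZK3-WT. Its log2 fold change was 0.49 (SE 0.16, 1.40-fold) with an FDR of 0.166, and it rose by 0.56 at an FDR of 0.0338 without ZK3-KO replicate 3 (0.0338 to 0.516 over the alternatives). ANAPC2, the cullin-like subunit that holds the RING protein, was at 37.2, 29.4 and 32.7 CPM against 42.6, 53.6 and 42.8 CPM. ANAPC2 also differed by 0.49 on the log2 scale (SE 0.16) with an FDR of 0.186, and without ZK3-KO replicate 3 its FDR was 0.0505, just outside the threshold.

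On CPM, the other genes of the catalytic module were also without overlap but with smaller differences. ANAPC11, the RING subunit, was at 38.1, 27.0 and 31.98 CPM in ZK3-WT and at 38.7, 41.0 and 42.1 CPM in ZK3-KO (log2 fold change 0.33, SE 0.16, FDR = 0.344 with edgeR). ANAPC10, which takes part in substrate binding, was at 9.02, 9.66 and 10.5 CPM against 10.8, 10.8 and 11.4 CPM, a log2 fold change of 0.18 (SE 0.16). Neither came near the threshold. ANAPC10 was the least abundant core subunit per length (14.2 TPM in ZK3-WT), and ANAPC5, a platform subunit, was the most abundant (94.0 TPM). The other TPR genes, CDC16, CDC23 and CDC27, differed by -0.061, 0.14 and -0.012 on the log2 scale and overlapped between the genotypes.

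Of the scaffold and platform genes, ANAPC1 and ANAPC4 were above every ZK3-WT library in ZK3-KO replicates 1 and 2, and lowest of all libraries in ZK3-KO replicate 3. ANAPC4 was at 31.8, 27.3 and 23.4 CPM in ZK3-WT and at 37.5, 42.5 and 19.1 CPM in ZK3-KO. Its log2 fold change was 0.27 (SE 0.30) with an FDR of 0.685, and 0.55 with an FDR of 0.0518 without replicate 3. Without ZK3-KO replicate 2 the ANAPC4 value was 0.042. ANAPC1, the largest scaffold subunit, had a log2 fold change of 0.068, and 0.32 without replicate 3. ANAPC5 differed by 0.12.

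The 4 small subunits did not move together. CDC26, a partner of CDC16, was at 16.5, 14.1 and 14.4 CPM in ZK3-WT and at 17.6, 18.3 and 24.2 CPM in ZK3-KO (log2 fold change 0.41, SE 0.18, FDR = 0.282 with edgeR). Every ZK3-KO library was above ZK3-WT, and the CDC26 value was 0.26 without ZK3-KO replicate 3. ANAPC16, singled out after its values were seen, was at 79.0, 92.7 and 90.9 CPM in ZK3-WT but at 56.2, 48.1 and 104 CPM in ZK3-KO. ZK3-KO replicates 1 and 2 were below every ZK3-WT library and replicate 3 was above them. The log2 fold change of ANAPC16 was -0.33 (SE 0.29, FDR = 0.591), and without replicate 3 it fell by 0.74 with an FDR of 0.0137 (up to 0.856 over the alternatives), while it was -0.12 without ZK3-KO replicate 2. ANAPC13 and ANAPC15, which serves in checkpoint release, differed by 0.36 and 0.13 and overlapped, and ANAPC13 differed by 0.079 without ZK3-KO replicate 3.

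The coactivator, E2 and inhibitor genes of the APC/C were all above 0 and none passed the test. FZR1, the coactivator of late mitosis and G1, was at 65.4, 48.3 and 58.5 CPM in ZK3-WT and at 67.0, 66.6 and 77.5 CPM in ZK3-KO (log2 fold change 0.29, SE 0.16, FDR = 0.381 with edgeR). UBE2C, which places the first ubiquitin, was at 81.6, 52.1 and 69.9 CPM against 86.5, 88.3 and 80.9 CPM, with a log2 fold change of 0.33 (SE 0.18) and an FDR of 0.393. Without ZK3-WT replicate 2 the UBE2C value was 0.17. Only ZK3-KO replicate 3 was inside the ZK3-WT range, by a small margin. UBE2S, which extends the chain, differed by 0.14, and by -0.10 without ZK3-KO replicate 3. FBXO5 encodes EMI1, the inhibitor of the APC/C in S and G2 phase. It was nearly constant in ZK3-WT at 33.0, 34.1 and 33.4 CPM, whereas ZK3-KO replicates gave 36.8, 46.8 and 17.9 CPM. The values of ZK3-KO lay on both sides of ZK3-WT, and the log2 fold change was 0.015 (SE 0.32, FDR = 0.986) with all libraries and 0.33 (FDR = 0.168) without ZK3-KO replicate 3.

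Of the 5 cullin scaffolds, 4 were above 0, with a median log2 fold change of 0.12. CUL1, the scaffold of SCF, was at 85.4, 93.4 and 95.7 CPM in ZK3-WT and at 96.5, 122.8 and 96.1 CPM in ZK3-KO, without overlap but with replicates 1 and 3 just above ZK3-WT. Its log2 fold change was 0.20 (SE 0.15, FDR = 0.538 with edgeR). CUL5 was at 60.4, 67.4 and 55.6 CPM against 59.9, 60.6 and 33.9 CPM, and the single low library was ZK3-KO replicate 3. With it the log2 fold change was -0.25 (SE 0.24), and without it -0.016. CUL2, CUL3 and CUL4A differed by 0.24, 0.019 and 0.12 and overlapped. CUL2 differed by 0.42 without ZK3-KO replicate 3 and by 0.13 without ZK3-KO replicate 2, and CUL1 by 0.074 without the latter. RBX1, the RING protein of most cullin ligases, was at 28.6, 19.96 and 22.1 CPM in ZK3-WT and at 32.2, 27.6 and 31.1 CPM in ZK3-KO, with a log2 fold change of 0.36 (SE 0.18) and an FDR of 0.333. RNF7, the RING protein used by CUL5, differed by 0.21, and by 0.027 without ZK3-KO replicate 3.

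NEDD8 was at 71.4, 50.9 and 53.6 CPM in ZK3-WT and at 73.1, 77.3 and 73.1 CPM in ZK3-KO. ZK3-WT replicate 1 nearly reached the ZK3-KO level, and the log2 fold change was 0.35 (SE 0.17) with an FDR of 0.325. NEDD8 is the only 1 of the 35 genes on chromosome 14 (GRCh37 chr14:24686063-24701573, minus strand), where the 504 genes tested had a median log2 fold change of 0.51 (0.48 without ZK3-KO replicate 3). The part of this shift in the NEDD8 value was not tested. UBE2M, the E2 enzyme for NEDD8, differed by 0.28, and CAND1 by 0.075, or 0.32 without ZK3-KO replicate 3. The 35 genes lie on 18 chromosomes. By the GRCh37 annotation, CKS2 has 3 exons at chr9:91926110-91931618 (plus strand), SKP1 has 6 at chr5:133484626-133512655 (minus strand), ANAPC7 has 11 at chr12:110810705-110841535 (minus strand), ANAPC2 has 13 at chr9:140069236-140083012 (minus strand) and CDC34 has 5 at chr19:531760-542092 (plus strand).

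Some of these genes share sequence with pseudogenes or readthrough transcripts, so that reads can be split between them. The table held 41 such copies, of which 9 had at least 100 reads in a library. ANAPC1P2 had 833 to 1351 reads and ANAPC1P4 had 597 to 921, and copies took 14.5% to 30.2% of the reads of ANAPC1 and its copies together. CKS1BP1, CKS1BP2 and CKS1BP3 had 76 to 163, 317 to 557 and 181 to 288 reads, and the share of copies was 11.2% to 14.1% for CKS1B. CDC26P1 had 98 to 192 reads (8.999% to 11.4% for CDC26), and the readthrough gene NEDD8-MDP1 had 225 to 379 (4.56% to 9.19% for NEDD8 with its pseudogene). UBE2CP5 had 251 to 340 reads and UBE2SP1 had 309 to 683. The other 32 copies had at most 67 reads. When copies were added to their gene, the number past an FDR of 0.05 stayed at 0 of 35, and 6 passed an unadjusted p of 0.05. The share of all genes at that unadjusted level was not taken with copies summed.

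The ZK3-KO libraries differed more among themselves than the ZK3-WT libraries, with a median coefficient of variation of 15.4% against 9.71% over the 35 genes (24.4% and 14.3% over all genes tested). ZK3-KO replicate 3 was below both other ZK3-KO libraries in 21 of the 35 genes and above both in 12, against 41.4% and 42.9% of all genes. It was above every ZK3-WT library in 19 genes and below every ZK3-WT library in 10, whereas ZK3-KO replicates 1 and 2 were above in 23 and 26 genes and below in 2 each. These counts against ZK3-WT were not taken over all genes tested, so they do not show a trait of the 35 genes. Transcript length moved with the difference of ZK3-KO replicate 3 from the other ZK3-KO libraries. Across the 35 genes, with canonical transcripts of 616 to 11176 bases, the difference of ZK3-KO replicate 3 from the mean of replicates 1 and 2 had a Spearman rho of -0.424 with length. Across 15715 tested genes with a length the rho was -0.293. The mean of ZK3-KO replicates 1 and 2 against ZK3-WT had a rho of -0.070 with length over the 35 genes and 0.013 over all. The log2 fold change from all 6 libraries had a rho of -0.364 with length over the 35 genes and -0.137 over all. These correlations are across genes of the same 6 libraries and are descriptions. Of the 17 longer genes, 14 (82.4%) were lower in ZK3-KO replicate 3 than in the mean of replicates 1 and 2. Their median difference was -0.23 on the log2 scale. Among all tested genes longer than the same limit of 2655 bases, 58.6% were lower, with a median of -0.12. Of the 18 shorter genes, 8 (44.4%) were lower, with a median of 0.068. Among all shorter genes 38.4% were lower, with a median of 0.15. The part of transcript length in the values of single genes was not tested.

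**Figure D4:**
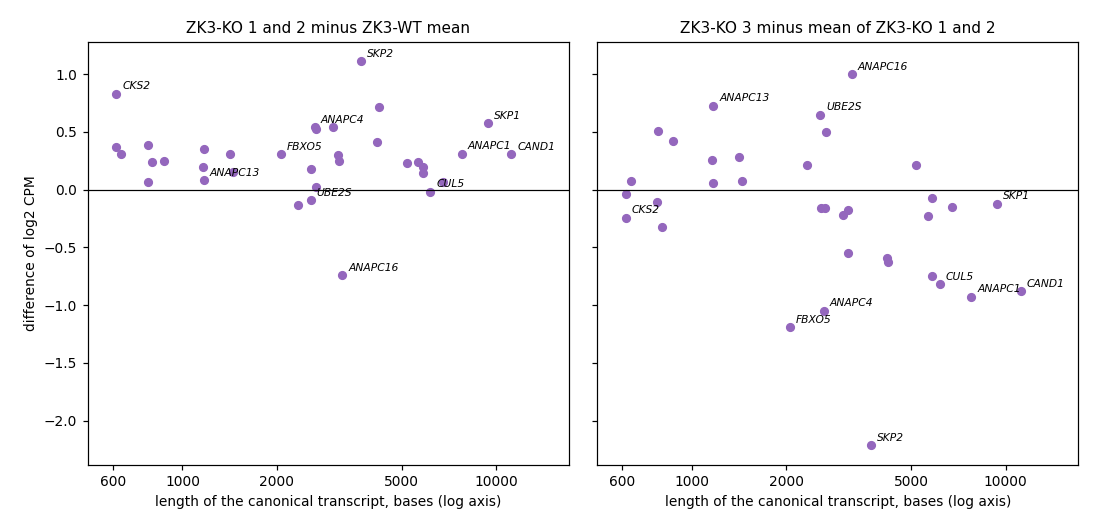
Canonical transcript length (horizontal log axis, bases) of the 35 genes against the mean log2 CPM of ZK3-KO replicates 1 and 2 minus that of ZK3-WT (left) and against ZK3-KO replicate 3 minus the mean of replicates 1 and 2 (right). Each point is 1 gene, and both panels share the vertical axis. The points show little slope on the left (rho -0.070) and lie lower for longer genes on the right (rho -0.424), with SKP2 lowest.

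Other genes of the same pathways were described from 6 lists with 107 genes, of which 105 were tested. Of these, 1 was higher and 1 lower at an FDR of 0.05, beside 2.05% of all genes called. LRR1, a substrate receptor of CUL2, was at 15.1, 12.04 and 14.8 CPM in ZK3-WT and at 34.3, 46.0 and 24.4 CPM in ZK3-KO, without overlap. LRR1 rose by 1.32 on the log2 scale (SE 0.25) with an FDR of 0.0469. It lies on chromosome 14 like NEDD8. With the replicate block its FDR was 0.0542, without ZK3-KO replicate 3 it was 0.00174, and leaving out any 1 of the other 5 libraries gave 0.0903 to 0.247. DCUN1D3, a DCN1-like protein of the neddylation pathway, was at 45.3, 45.4 and 38.8 CPM in ZK3-WT and at 20.3, 19.8 and 26.3 CPM in ZK3-KO. DCUN1D3 fell by 0.97 on the log2 scale (SE 0.17) with an FDR of 0.0375, while UBE2M and NEDD8 of the same pathway did not pass. With the replicate block its FDR was 0.0505, without ZK3-KO replicate 3 it was 0.00296, and without any 1 of the other 5 libraries it was 0.104 to 0.202.

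The 19 genes of APC/C substrates were all above 0, with a median log2 fold change of 0.43, or 0.62 without ZK3-KO replicate 3. None passed an FDR of 0.05 with all libraries and 2 passed an unadjusted p of 0.05, both higher in ZK3-KO (8.89% of all genes), while 8 rose past an FDR of 0.05 without ZK3-KO replicate 3 (7.41% of all genes). The 2 were DLGAP5, a spindle protein on chromosome 14, and GMNN, the inhibitor of replication licensing. DLGAP5 was at 88.8, 50.5 and 58.1 CPM in ZK3-WT and at 172, 180 and 80.0 CPM in ZK3-KO, so that replicate 3 was within the ZK3-WT range. GMNN was at 25.7, 20.8 and 19.4 CPM against 41.0, 59.9 and 20.1 CPM, with the same library low, and its log2 fold change of 0.88 was 0.48 without ZK3-KO replicate 2. Many substrate genes are cell cycle genes, and the part of their higher level in the SKP2, CCNF and CKS2 values was not tested. Of the 10 APC/C regulators tested, 8 were above 0 with a median of 0.23, none was higher and 1 lower at an unadjusted p of 0.05, and 4 rose past an FDR of 0.05 without ZK3-KO replicate 3. The lower gene was FBXO43, which encodes EMI2, an APC/C inhibitor of egg meiosis, at 0.528, 0.0865 and 0.275 CPM in ZK3-KO against 1.11, 0.599 and 0.772 CPM. CDC20, the mitotic coactivator, was at 209.6, 108 and 143 CPM in ZK3-WT and 258, 279 and 161 CPM in ZK3-KO, a log2 fold change of 0.60 (SE 0.30) with an FDR of 0.339.

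The lists of other ligase components had medians nearer 0. Of all genes tested, 51.7% were above 0, and 8.89% were higher and 9.46% lower at an unadjusted p of 0.05. Of 31 F-box genes, 18 were above 0 with a median of 0.033, and 1 was higher and 3 lower at an unadjusted p of 0.05. FBXL18 was highest among these at a log2 fold change of 0.85 (SE 0.17, FDR = 0.0552 with edgeR). Its FDR was 0.0479 with the replicate block, 0.0178 without ZK3-KO replicate 3 and 0.0011 with DESeq2, and up to 0.275 over the other alternatives. FBXW8, the F-box partner of CUL7, was at -0.44 (SE 0.15). Of 18 other cullins and adaptors, 9 were above 0 with a median of 0.0078, and 3 were higher and 1 lower at that level. GLMN, which binds RBX1 and blocks it, was at 0.77 (SE 0.19, FDR = 0.0992). Of 20 neddylation and COP9 signalosome genes, 13 were above 0 with a median of 0.13, with 1 higher and 1 lower. The higher gene was COPS4, a signalosome subunit, at 0.39 (SE 0.14). All 7 ubiquitin E1 and E2 genes were above 0 with a median of 0.11, and 1 was higher, UBE2L3, an E2 enzyme that also serves ARIH1, at 0.47 (SE 0.13, FDR = 0.133). UBA1, the main E1 enzyme, was at 0.37 (SE 0.17).

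**Figure D5:**
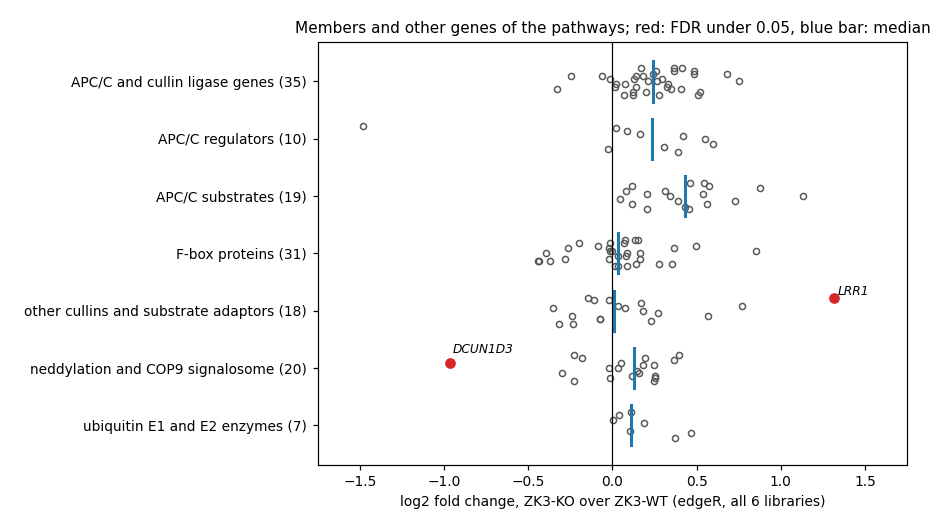
Log2 fold change of ZK3-KO over ZK3-WT (horizontal axis, edgeR, all 6 libraries) for the 35 genes and for 6 lists of other genes of the pathways, with the number tested in brackets. Each circle is 1 gene, blue bars are medians, and red marks an FDR under 0.05, reached by LRR1 and DCUN1D3. The median is 0.24 for the 35 genes, 0.43 for the APC/C substrates and 0.033 for the F-box genes.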

How the data were processed

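RNA-seq libraries (stranded, polyadenylated, paired-end) were made from 3 ZK3-WT and 3 ZK3-KO samples. The authors deposited raw counts of reads per gene beside FPKM and TPM values. Submitters' processing notes name Bowtie2 2.2.5 and hg19/GRCh37. The paper's methods name an Ensembl annotation, whereas the table lists NCBI Gene identifiers, so which annotation gave the counts is uncertain. FPKM values were not used, and the deposited TPM served for levels per length and 1 alternative.

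Counts were tested in R 4.3.3 with edgeR 4.0.16 (filterByExpr, TMM, quasi-likelihood test, genotype only), with Benjamini-Hochberg adjustment over 18366 genes. The study modelled TPM by ANOVA. CPM are TMM-normalized, and 0.5 CPM was added before log2 for relative levels. Alternatives were library totals alone, DESeq2 1.42.0, no filter, limma 3.58.1 on log2(TPM + 1), a block for the replicate number, leaving out each library and, added after seeing the data, copies summed. Scripts were tested on simulated data. Replicates differed by more than sampling noise.

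Libraries of the same number had correlations of 0.441, 0.124 and 0.584 between their deviations from the genotype mean. Different numbers gave -0.516 to 0.273, and ZK3-KO replicate 2 was closer to ZK3-WT replicate 1 (0.273) than to its own number. The numbers were taken as pairs in the replicate block alone, and the main test used genotype only. The sources do not say what the numbers mark. Genes and lists were chosen with earlier results of these data known. Genes described by library had an unadjusted p under 0.05, groups without overlap, the largest difference of their role group or the most variable ZK3-KO values, or were NEDD8. From each pathway list the genes past FDR 0.05 and the 2 with the lowest p were named. Positions and lengths came from GENCODE on GRCh37 by symbol, with lengths for 85.6% of tested genes.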

Additional observations from a re-analysis of the deposited data

How the results depend on the processing

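No gene of the 35 passed an FDR of 0.05 under library totals alone, no filter, limma on log2(TPM + 1), the replicate block or summed copies, 1 (CKS2) passed with DESeq2, and 0 to 6 passed when a library was left out. With the replicate block, which pairs the libraries by number, 6 genes passed an unadjusted p of 0.05 in place of 5. That count was 3 with library totals alone, 2 with limma on TPM and 2 to 11 with a library left out. The share of all genes at an unadjusted p of 0.05 was not taken under these alternatives. The counts therefore do not show a trait of the 35 genes. The number of all genes past FDR was 1506 with DESeq2 and 49 to 2858 with a library left out. The pathway genes past FDR (2) became 1 (DCUN1D3) with library totals and with limma on TPM, 1 other gene (FBXL18, with LRR1 and DCUN1D3 both lost) with the replicate block, 6 with DESeq2, 0 with no filter and 0 to 20 with a library left out. The median of the 35 genes was 0.16 with library totals and 0.083 with limma on TPM, where the median of all genes was -0.066 and -0.10. Above 0 were 29 and 24 of the 35 genes, and above the median of all genes 31 and 28.

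Of 563 values of 47 single genes under an alternative, 508 kept direction and side of the threshold, 18 newly passed, 16 no longer passed and 21 changed sign. With limma on TPM, ANAPC1 was -0.11, ANAPC5 -0.0056, CDC23 -0.0026, UBE2S -0.0063, FBXO5 -0.20, CUL4A -0.019 and CAND1 -0.11. With library totals FBXO5 was -0.047 and CUL3 -0.060, and FBXO5 was -0.088 with the replicate block. With a library left out, ANAPC1 ran from -0.18 to 0.32, CDC23 from -0.025 to 0.31, CDC27 from -0.16 to 0.20, ANAPC15 from -0.0050 to 0.27, UBE2S from -0.10 to 0.28, FBXO5 from -0.29 to 0.33, CUL3 from -0.035 to 0.071 and CAND1 from -0.20 to 0.32. None of these genes passed FDR in any setting, and the cause of the changes was not tested. Every gene of the 35 had at least 567 reads per library, and the intervals reflect the spread among 3 libraries per genotype.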
